A study of Mus musculus with 12 samples.

Results

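The response of cytotoxic T lymphocytes (CTL) to a p110δ inhibitor was compared between cells with and without the transcription factor FOXO1. For each genotype and replicate number, the log2 level of an mRNA without inhibitor was subtracted from its level with inhibitor, and the 3 changes obtained in FOXO1-GFP KO CTL were set against the 3 changes in WT CTL. This difference of responses is written as KO minus WT: a positive value means that the KO response was higher, a negative value that it was lower. Members were the 10373 of 13283 genes whose level averaged 1 FPKM or more over the 12 libraries (fragments per kilobase of exon, scaled to sequencing depth). At the border, Tigd3 (0.996 FPKM) and Gm12350 (0.998 FPKM) fell just outside, while Gm42547 and Tent5c stood at 1.0 FPKM and were kept. Levels were taken as log2(FPKM + 0.1) throughout, which understates changes of weakly expressed genes.

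All cells were CD8 T cell cultures from adult female mice, activated through CD3 and CD28 and then expanded in IL-2 and IL-12. WT CTL came from GzmB cre+ mice and FOXO1-GFP KO CTL from FOXO1-GFPfl/fl Gzmb cre+ mice, so both genotypes carried the Cre transgene. Each genotype was kept for 24 h with vehicle (DMSO) or with 10 µM IC87114, a selective p110δ inhibitor (PI3Kdi), which gave 4 groups of 3 libraries. Cre was driven by the granzyme B promoter, which is active in activated and not in naïve CD8 T cells. The sorting gates were not the same: KO cells were sorted as CD8+ GFP-, since the floxed allele encodes a FOXO1-EGFP fusion, whereas WT cells were sorted as CD8+ alone. The labels call the numbered samples biological replicates without saying that a number stands for 1 mouse, so the p-values below measure the spread between these pairs of cultures.

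PI3K p110δ is the lymphocyte catalytic subunit that produces the lipid PIP3 at the membrane and so recruits and activates the kinase AKT. AKT phosphorylates FOXO1 and holds it outside the nucleus, and inhibition of p110δ lets FOXO1 return and act on its promoters. In T cells FOXO1 is known to drive genes of quiescence, survival and lymphoid homing such as Il7r, Klf2, S1pr1, Ccr7 and Tcf7, and it shares its DNA motif with the related factors FOXO3 and FOXO4.

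Foxo1 itself (chr3:52268336-52353221, plus strand, GRCm38) followed the genotype labels. Its level was 9.99, 5.77 and 5.79 FPKM in WT, 10.5, 5.84 and 7.50 FPKM in WT+PI3Kdi, 0.58, 1.08 and 1.44 FPKM in KO, and 0.61, 1.06 and 1.75 FPKM in KO+PI3Kdi. No KO library reached the lowest WT library, and a residual signal stayed in each KO library. PI3Kdi left Foxo1 near its starting level in both genotypes (log2 change of 0.15 in WT and 0.10 in KO). For the related factors the responses differed by less than 1.5-fold: the difference of responses was -0.09 ± 0.11 (SE) for Foxo3 and -0.04 ± 0.12 for Foxo4, with 90% intervals from -0.29 to 0.10 and from -0.26 to 0.17, both inside a 1.5-fold band (0.585 on the log2 scale).

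The libraries held 12.8 to 47.9 M reads, recovered from the FPKM steps of short genes, and the median gene had 282 to 1072 reads. In the WT pairs the vehicle library was the deeper one, by 1.33, 3.21 and 1.81 times, and in the KO pairs the ratio was 0.715, 1.55 and 0.729; the part of depth in the difference of responses was not tested. Markers of CD8 T cells summed to 1438 to 2134 FPKM over all libraries. In 3 libraries the level stood apart for RNAs that carry no poly(A) tail. In WT+PI3Kdi replicates 1 and 2 and in KO replicate 1, Rn7sk was at 62.2, 92.0 and 118 FPKM and n-R5-8s1 at 166, 235 and 297 FPKM, against 1.97 to 7.33 and 1.86 to 15.9 FPKM in the other 9 libraries. They sit on opposite arms of the 2 genotypes, with inhibitor in WT and without it in KO. The genes called and several list results are therefore also given without their 3 pairs, though not every list count that changes. Leaving out these 3 pairs keeps 1 WT pair and 2 KO pairs. In bulk RNA, fewer cells of a kind and less RNA per cell cannot be told apart.

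For most mRNAs the PI3Kdi responses with and without FOXO1 differed by less than 1.5-fold, but most mRNAs were called for no response in either genotype. The median difference of responses over the members was 0.02 (log2), with a standard deviation of 0.24 between genes, and 9128 members (88%) had a 90% interval of the difference inside the 1.5-fold band. Among the 145 members called below for the mean of the 2 responses, 83 (57.2%) had such an interval. For a call, the difference had to exceed 1.5-fold and its limma p, adjusted by Benjamini-Hochberg over the whole table, to stay under 0.05. Cd38, Tgm2 and Gm13340 passed, which is 3 of the 13283 genes tested (0.0226%), and in each of them the KO response was the higher one. At an unadjusted p under 0.05 the KO response was higher for 926 members and lower for 469, against 8.27% and 4.38% of the whole table. The 3 KO changes lay above the 3 WT changes for 1254 members and below them for 749, against 11.1% and 6.96% of the table. Of the genes at an unadjusted p under 0.05, 65.4% responded higher in KO, but after removal of each library's trends with gene length and GC content this share was 46.4%, so the excess of higher over lower KO responses was not kept under that scaling. Without the 3 pairs that hold the libraries high in RNA without a poly(A) tail, no gene was called, and 1100 had an unadjusted p under 0.05. The count of 3 was sensitive to the method: it was 0 without a replicate block, 0 to 2 on leaving out 1 pair, and 65 with voom on reads estimated from the FPKM, 57 of them members (19 higher and 38 lower in KO).

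Within each genotype alone, 178 members were called for the WT response (117 higher and 61 lower with PI3Kdi) and 215 for the KO response (147 higher and 68 lower), where 1.91% and 2.47% of the table were called. As a description of pairs, 1050 members went up in all 6 pairs and 1678 went down in all 6, while 123 went up in the 3 WT pairs and down in the 3 KO pairs and 208 did the reverse. Random signs would also place some members in each of these classes, so the 123 and 208 do not by themselves show opposed responses. Over the members, pair changes correlated at 0.30 to 0.53 between WT pairs, 0.33 to 0.51 between KO pairs and 0.05 to 0.39 between a WT and a KO pair; these are Pearson values across genes, which are not independent replicates.

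**Figure D1:**
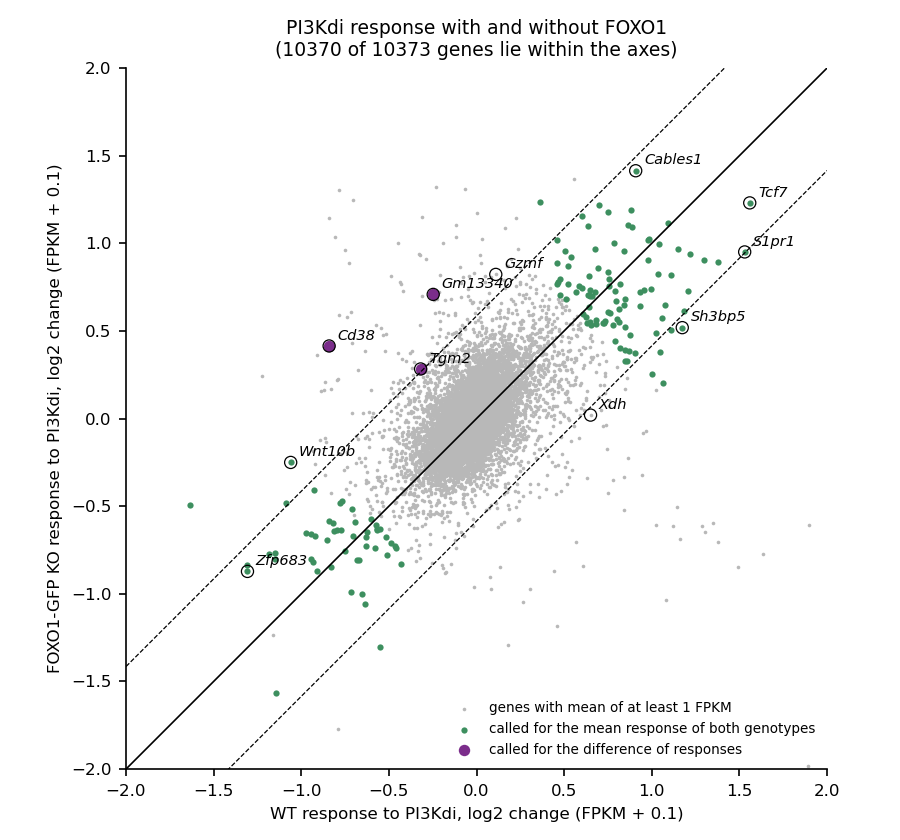
Log2 change with PI3Kdi in WT CTL (horizontal axis) against the log2 change in FOXO1-GFP KO CTL (vertical axis), each point being 1 of the 10370 genes that lie within the axes. Genes called for the mean response of both genotypes lie towards the upper right and lower left, where choosing on the mean places them. Cd38, Tgm2 and Gm13340, called for the difference, lie above the diagonal with a fall or no rise in WT and a rise in KO.

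Cd38 mRNA took opposite courses in the 2 genotypes. Cd38 (chr5:43868553-43912375, plus strand) encodes a surface ectoenzyme that consumes NAD. Its level was 2.03, 1.92 and 2.07 FPKM in WT and 0.97, 1.05 and 1.22 FPKM in WT+PI3Kdi, and it was 2.01, 2.03 and 1.98 FPKM in KO and 2.82, 2.78 and 2.53 FPKM in KO+PI3Kdi. The vehicle libraries of both genotypes were alike, at 2.01 ± 0.078 (SD, n = 3) and 2.01 ± 0.025 FPKM, and the treated libraries separated without overlap, to 1.08 ± 0.13 and 2.71 ± 0.16 FPKM. Cd38 fell in WT, by 0.84 on the log2 scale (limma adjusted p = 0.00292), and rose by 0.41 in KO (adjusted p = 0.0274). The fall in WT was called, while the rise in KO was less than 1.5-fold and was not. The difference of responses was 1.26 ± 0.14 (SE, 95% interval 0.95 to 1.57, adjusted p = 0.0490), and it rests on 62 to 359 reads per library. Leaving out any 1 pair kept the difference at 1.18 to 1.32, but the adjusted p was then 0.133 to 0.313, and without a replicate block it was 0.294. Without the 3 pairs named above the difference was 1.1. An exact two-sided permutation test of 3 changes against 3 cannot give a p below 0.1, so single genes were judged by the fit across all genes. Of the other 9 members among the NAD metabolism genes, none was called, and over the 10 members the median difference was 0.13, with 1 higher and 1 lower at an unadjusted p under 0.05.

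Tgm2 (chr2:158116402-158146436, minus strand), which encodes the protein cross-linking enzyme transglutaminase, was expressed far above Cd38 and showed a smaller version of the same pattern. It measured 74.7, 65.6 and 67.0 FPKM in WT, 56.9, 52.5 and 56.5 FPKM in WT+PI3Kdi, 112, 100.5 and 161 FPKM in KO, and 146, 116 and 193 FPKM in KO+PI3Kdi. Every WT pair went down and every KO pair went up, and the KO libraries were above the WT libraries under either condition. Tgm2 fell by 0.32 on the log2 scale in WT (limma adjusted p = 0.00813) and rose by 0.28 in KO (adjusted p = 0.00935), neither of which is a 1.5-fold change on its own. The difference of responses was 0.60 ± 0.07 (SE, 95% interval 0.45 to 0.76, adjusted p = 0.0490). Without the 3 pairs with a library high in RNA without a poly(A) tail it was 0.48.

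Gm13340 (chr2:22588103-22589647, minus strand) is annotated as an unprocessed pseudogene, and 817 of its 1521 stretches of 25 bases (53.7%) are also found in mitochondrial transcripts, so its reads cannot be assigned to this locus with certainty. It was at 6.10, 6.90 and 10.5 FPKM in WT, 5.03, 5.99 and 8.69 FPKM in WT+PI3Kdi, 3.68, 4.41 and 8.0 FPKM in KO, and 6.49, 6.23 and 14.3 FPKM in KO+PI3Kdi. The change was -0.25 in WT (limma adjusted p = 0.103) and the signal rose by 0.71 in KO (adjusted p = 0.00204), a difference of 0.96 ± 0.11 (SE, 95% interval 0.71 to 1.21, adjusted p = 0.0490). The 7 mitochondrially encoded members also had differences above 0, with a median of 0.26 (range 0.20 to 0.75), and 6 of them had an unadjusted p under 0.05; without a replicate block none of the 7 did, and 1 did with the block as a random effect, after removal of length and GC trends or without the 3 pairs. mt-Nd6, a subunit of respiratory complex I, had the highest value of them, 0.75 ± 0.20 (adjusted p = 0.232).

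A further 2 members had an adjusted p under 0.05 (limma, 0.0490 each) with a difference just under 1.5-fold. Fkbp1a, which encodes the FK506- and rapamycin-binding protein FKBP12, was at 77.6, 91.2 and 92.3 FPKM in WT, 116, 139 and 143 FPKM in WT+PI3Kdi, 72.7, 71.3 and 70.3 FPKM in KO, and 78.9, 78.0 and 70.1 FPKM in KO+PI3Kdi. Fkbp1a rose by 0.61 in WT (adjusted p = 0.000320) and changed by 0.08 in KO (adjusted p = 0.216), a difference of -0.53 ± 0.06. Gadd45g, a stress-induced regulator of p38 signalling, fell by 0.41 in WT (adjusted p = 0.00279) and rose by 0.17 in KO (adjusted p = 0.0409), a difference of 0.58 ± 0.06. In all, 6 members had an adjusted p under 0.05 within both genotypes and opposite signs: Cd38, Gadd45g, Gbp8, Mtln, Tgm2 and Tmem171. At that p and any fold, 721 members passed for the WT response and 1756 for the KO response, against 800 and 1898 genes of the whole table. A share of the table for opposite signs was not computed. Of the 6, only Cd38 was called at 1.5-fold within a genotype, for its fall in WT.

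**Figure D2:**
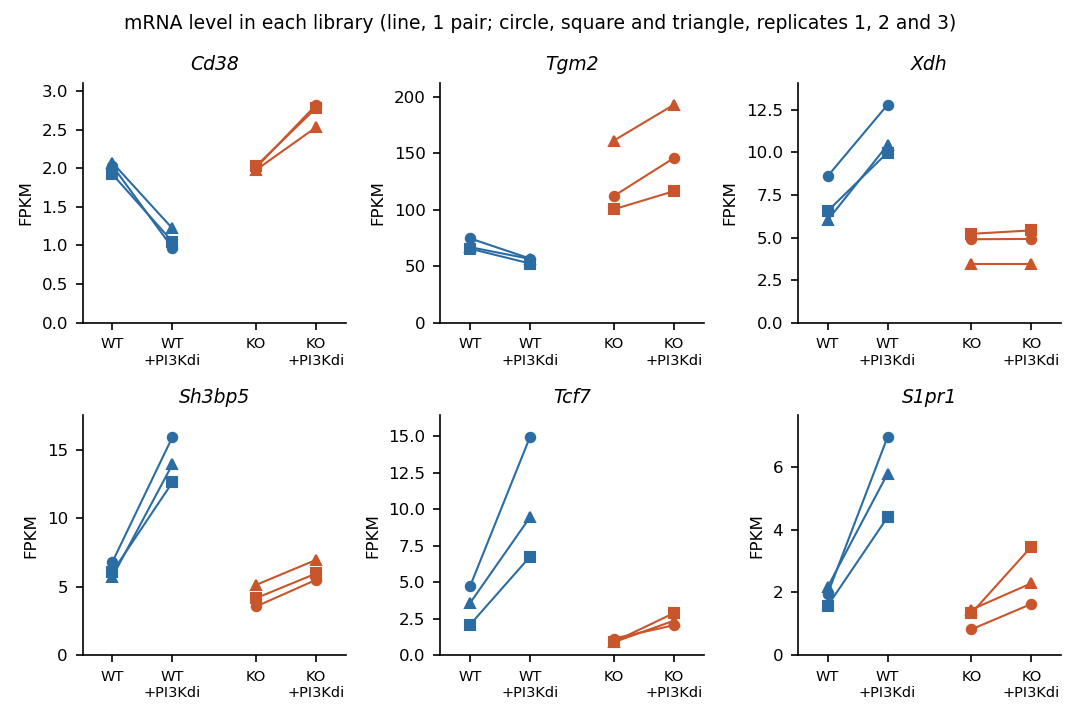
FPKM of 6 genes in each library (vertical axis, from 0) by group (horizontal axis), with lines joining the vehicle and PI3Kdi library of a pair and symbols marking replicate number. Cd38 and Tgm2 go down in WT pairs and up in KO pairs, Xdh rises in WT pairs and stays level in KO pairs, and Sh3bp5, Tcf7 and S1pr1 rise in both.

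In 56 members the KO response was lower by more than 1.5-fold without overlap of the pair changes, 48 of them with a gene symbol that is no predicted model. At any fold, 749 members lay below without overlap, where 6.96% of the table did, and a share for the combined filter was not computed. Among the 48, the 10 with the smallest p follow. None passed the adjusted threshold, and their adjusted p-values ran from 0.117 to 0.152 (limma). Xdh (chr17:73883895-73950196), xanthine dehydrogenase of purine breakdown, was at 8.60, 6.55 and 6.02 FPKM in WT, 12.8, 9.99 and 10.4 FPKM in WT+PI3Kdi, 4.90, 5.22 and 3.45 FPKM in KO, and 4.92, 5.42 and 3.45 FPKM in KO+PI3Kdi. It rose in the 3 WT pairs (0.65, adjusted p = 0.00167), while the KO libraries of a pair were nearly identical (0.02, adjusted p = 0.859), a difference of -0.63 ± 0.09 (SE). Sh3bp5 (chr14:31359880-31436078), an exchange factor for the GTPase RAB11, was at 6.83, 6.09 and 5.74 FPKM in WT, 15.96, 12.6 and 13.96 FPKM in WT+PI3Kdi, 3.56, 4.17 and 5.14 FPKM in KO, and 5.51, 5.97 and 6.97 FPKM in KO+PI3Kdi. Sh3bp5 rose in both genotypes, by 1.17 in WT and by 0.52 in KO, with a difference of -0.66 ± 0.10.

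Kcnj8 (chr6:142564837-142571614), which encodes the pore of an ATP-sensitive potassium channel, was at 1.0, 1.13 and 1.49 FPKM in WT, 1.71, 1.75 and 2.27 FPKM in WT+PI3Kdi, 1.2, 1.39 and 1.62 FPKM in KO, and 0.81, 1.19 and 1.31 FPKM in KO+PI3Kdi. All 3 WT pairs went up and all 3 KO pairs went down, and the difference was -0.96 ± 0.15. The pyrophosphate transport gene Ank (0.35 in WT and -0.37 in KO), Tmem171 (0.48 and -0.41) and the neuropeptide precursor gene Qrfp (0.52 and -0.38) had the same signs in every pair, with differences of -0.72, -0.90 and -0.89. Dusp7, a phosphatase of MAP kinases, and Fam129b were lower with PI3Kdi in the KO pairs: their log2 changes were 0.11 and -0.18 in WT and -0.48 and -0.88 in KO, with adjusted p-values of 0.00627 and 0.00204 (limma) for the KO falls. Trbj2-5, a T cell receptor joining segment, rests on 5 to 22 reads per library, and its difference of -1.32 ± 0.25 has that depth behind it.

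Ighm, the heavy chain of IgM, was also among these 10. It was at 8.06, 10.3 and 7.61 FPKM in WT, 11.1, 12.98 and 12.8 FPKM in WT+PI3Kdi, 2.35, 2.44 and 3.71 FPKM in KO, and 1.64, 2.26 and 3.15 FPKM in KO+PI3Kdi, with a difference of -0.78 ± 0.14. IgM heavy chain is a product of B cells. The table holds 4 markers of a B cell list of 12, and with Ighm, which makes up most of it in WT, their sum was 13.7 to 16.9 FPKM in WT, 16.8 to 20.7 in WT+PI3Kdi, 6.49 to 8.13 in KO and 5.75 to 8.49 in KO+PI3Kdi, so the KO groups overlapped. The differences of responses of the other members of the list were above 0, at 0.23 for Cd79b and 0.62 for Cd74. The part of B cells in the Ighm result was not tested.

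**Figure D3:**
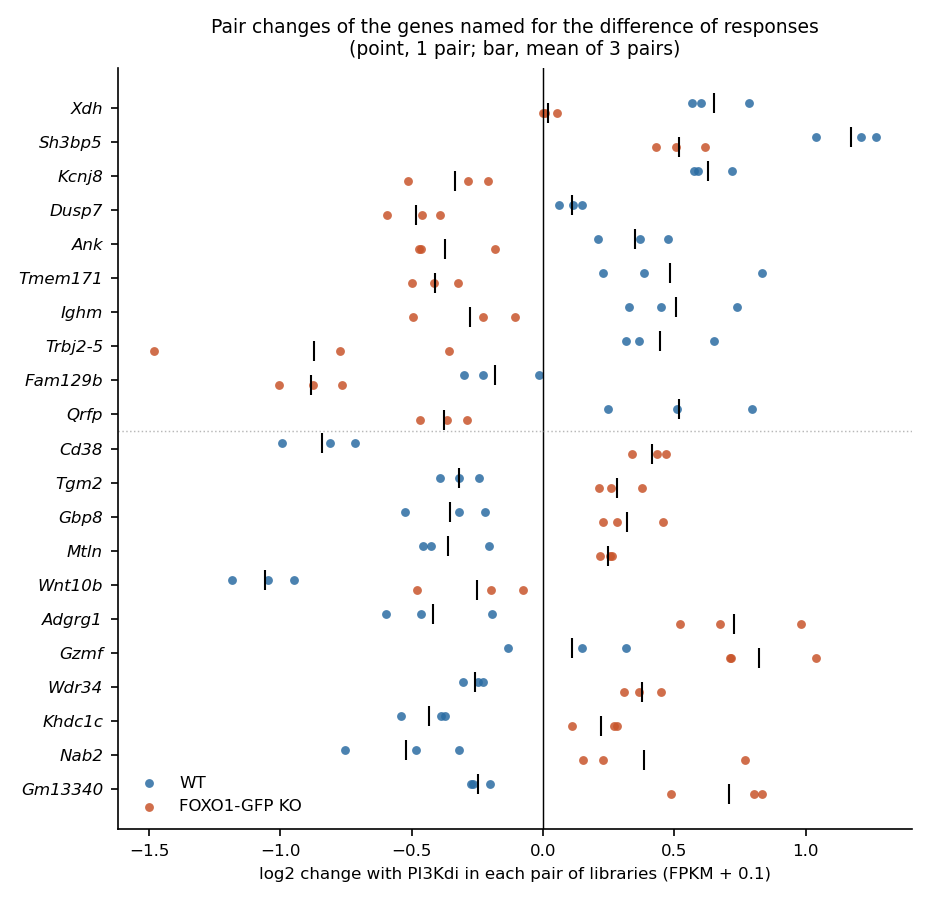
Log2 change with PI3Kdi in each pair of libraries (horizontal axis) for the genes named for a lower or a higher KO response (vertical axis), points for single pairs and bars for the mean of 3 pairs in each genotype. WT and KO points do not overlap for any gene shown, which the choice of genes required or, for Gm13340, favoured. They lie on opposite sides of 0 for all genes shown except Xdh, Sh3bp5, Fam129b, Wnt10b and Gzmf.

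In the other direction, 91 members had a KO response higher by more than 1.5-fold without overlap, 43 of them named. At any fold, 1254 members lay above without overlap, where 11.1% of the table did. Beside Cd38 and Tgm2, the 8 named genes with the smallest p had adjusted p-values from 0.117 to 0.143 (limma). Gbp8, an interferon-inducible guanylate-binding protein gene with close relatives on chromosome 5, was at 30.6, 49.0 and 63.1 FPKM in WT, 26.2, 39.2 and 43.8 FPKM in WT+PI3Kdi, 27.8, 28.3 and 75.7 FPKM in KO, and 33.9, 38.8 and 88.6 FPKM in KO+PI3Kdi. It fell by 0.36 in WT and rose by 0.32 in KO, a difference of 0.68 ± 0.09. Mtln, which encodes a mitochondrial micropeptide, fell by 0.36 in WT and rose by 0.25 in KO, a difference of 0.61 ± 0.09. Wnt10b, a secreted Wnt ligand, was at 2.66, 4.90 and 4.95 FPKM in WT, 1.33, 2.32 and 2.12 FPKM in WT+PI3Kdi, 4.96, 6.39 and 6.06 FPKM in KO, and 3.53, 5.56 and 5.75 FPKM in KO+PI3Kdi. All 6 Wnt10b pairs went down, with changes of -1.06 in WT (adjusted p = 0.000928) and -0.25 in KO (adjusted p = 0.116), a difference of 0.81 ± 0.13.

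Adgrg1, an adhesion G protein-coupled receptor found on cytotoxic lymphocytes, was at 0.96, 0.70 and 0.86 FPKM in WT, 0.60, 0.48 and 0.74 FPKM in WT+PI3Kdi, 0.59, 1.69 and 1.49 FPKM in KO, and 0.89, 3.44 and 2.44 FPKM in KO+PI3Kdi. Its changes were -0.42 in WT (limma adjusted p = 0.109) and 0.73 in KO (adjusted p = 0.0132), a difference of 1.15 ± 0.19. Gzmf, a granzyme gene of the chromosome 14 cluster whose members are similar in sequence and may share reads, was at 11.6, 16.8 and 16.4 FPKM in WT, 10.6, 18.6 and 20.5 FPKM in WT+PI3Kdi, 17.98, 22.3 and 12.3 FPKM in KO, and 29.5, 46.0 and 20.2 FPKM in KO+PI3Kdi. It rose by 0.82 in KO (adjusted p = 0.00243) and changed by 0.11 in WT (adjusted p = 0.520). Nab2, a corepressor of the EGR factors, changed by -0.52 in WT and 0.38 in KO, and the dynein-2 chain gene Wdr34 by -0.26 and 0.38. Khdc1c, one of a family of near-identical genes, changed by -0.43 and 0.22.

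Genes were next chosen on the mean of the 2 responses, which in this balanced design does not fix their difference. A call for this mean does not require a response in each genotype, so a response in 1 genotype alone can pass. For this mean response 95 members were called higher and 50 lower with PI3Kdi, where 1.33% and 0.663% of the table were called. Of the 145, 137 moved the same way in all 6 pairs, which choosing on the mean of these pairs favours. Limma called no difference between the genotypes among the 145, while voom on reads estimated from the FPKM called 5. In 83 the KO response was the smaller and in 62 the larger, and for 83 of the 145 the 90% interval of the difference lay inside the 1.5-fold band. At an unadjusted p under 0.05, 25 responses were smaller in KO and 23 were larger. The median response of the 95 was 0.79 in WT and 0.72 in KO, and that of the 50 was -0.76 in WT and -0.68 in KO. Without a replicate block, 44 members were called and 16 had an interval inside the band, and without the 3 pairs that hold a library high in RNA without a poly(A) tail these counts were 119 and 51.

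Tcf7 had the largest mean rise of the named members. It encodes TCF1, a transcription factor of naïve and memory T cells and a known FOXO1 target. Tcf7 was at 4.71, 2.08 and 3.56 FPKM in WT, 14.9, 6.74 and 9.44 FPKM in WT+PI3Kdi, 1.13, 0.90 and 0.88 FPKM in KO, and 2.04, 2.87 and 2.35 FPKM in KO+PI3Kdi. Without PI3Kdi the KO libraries lay under every WT library, and with PI3Kdi they came into the range of the vehicle-treated WT libraries or just under it. Tcf7 rose by 1.56 in WT (limma adjusted p = 0.000933) and by 1.23 in KO (adjusted p = 0.00248). The difference was -0.33 ± 0.20 (SE, adjusted p = 0.536), and its 90% interval, -0.70 to 0.04, reached beyond 1.5-fold, so a response smaller by that much in KO lies within the interval. With the 1 WT and 2 KO pairs that remain after leaving out the libraries high in RNA without a poly(A) tail, the difference was 0.06.

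A Tcf7 promoter window is shown because Tcf7 was the 1 gene of the 21 named genes with a RefSeq promoter window in which the forkhead motif GTAAACA was found on either strand. The window was chosen because it holds the motif. Its RefSeq start lies inside the GENCODE gene (chr11:52252371-52283014) and not at the 5′ end of that gene. The window (RefSeq, GRCm38.p6, chr11:52282588-52282845, minus strand) is written 5′ to 3′ with the motif in capitals. The motif begins 1 base downstream of this RefSeq start, on the strand of the gene.
Tcf7 promoter: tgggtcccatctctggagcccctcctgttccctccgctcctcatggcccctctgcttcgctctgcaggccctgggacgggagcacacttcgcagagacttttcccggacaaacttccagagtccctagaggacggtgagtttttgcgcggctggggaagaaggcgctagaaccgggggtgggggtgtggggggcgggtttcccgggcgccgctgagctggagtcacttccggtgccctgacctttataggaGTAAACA
The same 7 letters occurred in 1199 of all 32851 windows (3.65%) and in 229 of the 7821 members with a window (2.93%). None of the 5 windows of genes named for a lower KO response and none of the 7 for a higher one held these letters. A match of this kind is a description of the sequence and not a binding site, and no match says only that the letters are not in this window.

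The other 5 largest mean rises were divided between smaller and larger KO responses. S1pr1, the sphingosine-1-phosphate receptor that guides exit from lymphoid organs, was at 1.95, 1.57 and 2.17 FPKM in WT, 6.96, 4.40 and 5.79 FPKM in WT+PI3Kdi, 0.82, 1.33 and 1.45 FPKM in KO, and 1.63, 3.46 and 2.29 FPKM in KO+PI3Kdi. It rose by 1.53 in WT and by 0.95 in KO, the KO changes lying below the WT changes in every pair, and the difference of -0.58 ± 0.20 had an adjusted p of 0.305 (limma). Tha1, threonine aldolase, rose by 1.38 in WT and 0.89 in KO, and Tnfrsf23, a decoy receptor for TRAIL with near-identical relatives, by 1.30 and 0.90. In contrast Cables1 rose by 0.91 in WT and 1.41 in KO. The repressor gene Hic1 rose by 1.09 in WT and 1.11 in KO, a difference of 0.02 with a 90% interval from -0.35 to 0.40, inside the 1.5-fold band.

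Falls shared by both genotypes included 3 chemokine genes among the 6 largest. Zfp683, which encodes HOBIT, a transcription factor of resident and effector T cells, fell by 1.31 in WT and by 0.87 in KO. The chemokine genes Ccl3 and Ccl4 fell by 1.31 and 1.15 in WT and by 0.83 and 0.80 in KO, and the immediate early gene Egr1 fell by 1.19 in WT and 0.77 in KO. Ccl12 changed by -1.14 in WT and -1.56 in KO but had 2 to 37 reads per library. For Zfp683, Ccl3, Ccl4 and Egr1 the KO estimate was the smaller, by 0.35 to 0.48 on the log2 scale, with adjusted p-values of the difference from 0.479 to 0.539 (limma), so none passed the test.

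**Figure D4:**
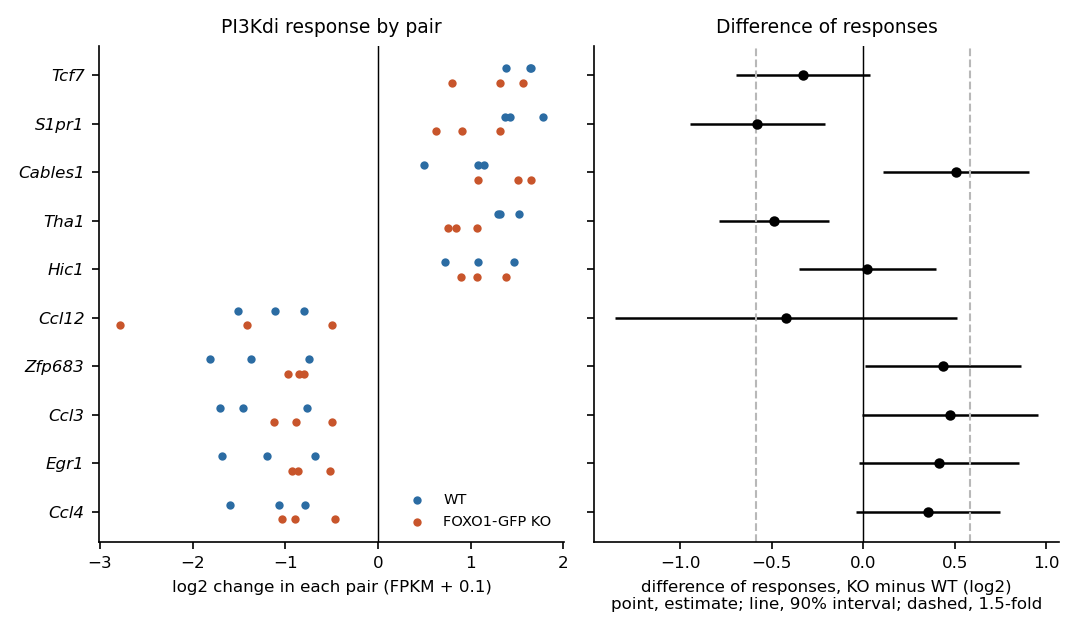
Left, log2 change with PI3Kdi in each pair (horizontal axis) for 10 members, those with the 5 largest mean rises and the 5 largest mean falls, and right, the difference of responses, KO minus WT, with its 90% interval and dashed lines at 1.5-fold. All points of a gene lie on 1 side of 0 in both genotypes, which the choice of genes required. The interval stays inside the dashed lines for Hic1 but crosses them for the rest.

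Other genes called for the mean response whose KO response was smaller at an unadjusted p under 0.05 were chosen for mention after their values were seen. Lyst, a regulator of lysosomal trafficking, rose by 1.0 in WT (limma adjusted p = 0.00769) and changed by 0.26 in KO (adjusted p = 0.272), and Nt5e, the ectonucleotidase CD73, rose by 1.19 and 0.62. The pro-apoptotic FOXO target gene Bcl2l11 was at 6.98, 5.06 and 6.72 FPKM in WT, 13.9, 8.45 and 12.5 FPKM in WT+PI3Kdi, 4.04, 5.76 and 6.54 FPKM in KO, and 5.32, 7.51 and 8.59 FPKM in KO+PI3Kdi. Bcl2l11 rose by 0.87 in WT and by 0.38 in KO, with a difference of -0.48 ± 0.09 (adjusted p = 0.143). Responses larger in KO included those of Tgfb3, a TGF-beta ligand gene (0.36 in WT and 1.24 in KO), Asb2, a ubiquitin ligase subunit gene (0.60 and 1.16), and Ifngr2, a chain of the interferon-gamma receptor (0.70 and 1.22).

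The FOXO1 target list was taken from the known targets that the study shows and was chosen with earlier results of these data known. It held 6 genes, which the study describes as rising with PI3Kdi in these WT CTL. Their WT calls are therefore not separate evidence, and a choice on the WT rise favours a KO minus WT difference below 0. All 6 members were called higher with PI3Kdi in WT and 4 of them in KO as well. Their median response was 1.09, 1.11 and 1.38 in the WT pairs and 0.75, 0.82 and 0.83 in the KO pairs. The difference was below 0 for the 6 of them, with a median of -0.31 against 0.02 over all members, none was called, and 2 had an unadjusted p under 0.05 (0 without a replicate block), among them S1pr1. Il7r, the IL-7 receptor chain, was at 9.80, 5.49 and 5.0 FPKM in WT, 19.2, 11.9 and 13.2 FPKM in WT+PI3Kdi, 4.85, 6.85 and 3.47 FPKM in KO, and 8.48, 14.5 and 7.23 FPKM in KO+PI3Kdi. It rose by 1.15 in WT and by 0.97 in KO (limma adjusted p = 0.000604 and 0.00134), with a difference of -0.18 whose 90% interval ran from -0.42 to 0.05, inside the 1.5-fold band. Klf2, the quiescence factor upstream of S1pr1, rose by 1.11 and 0.82, and the lymph node homing receptor gene Ccr7 rose by 0.65 in WT (adjusted p = 0.0203) and changed by 0.41 in KO (adjusted p = 0.0583). Without the pairs with a library high in RNA without a poly(A) tail, the median difference was -0.37 with 5 of 6 below 0.

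A list of 20 other FOXO target genes, 16 of them members, gave no common shift. As background for every list count, 8.27% of the whole table responded higher in KO and 4.38% lower at an unadjusted p under 0.05. The median difference of these 16 was -0.02, with 0 higher and 2 lower at that p (0 and 0 without a replicate block). Those were Bcl2l11, described above, and Sesn1, an inhibitor of mTORC1 signalling, which changed by 0.24 in WT and -0.11 in KO. Of 10 members that are transcription factors of memory cells, 8 had a difference below 0 (median -0.23), and the 2 lower at an unadjusted p under 0.05 (0 without a replicate block, 1 with the block as a random effect; without the 3 pairs the median was -0.08 and 1 was lower and 1 higher) were Lef1, a partner of TCF1 (0.53 in WT and 0.19 in KO), and the chromatin organiser Satb1 (0.34 and 0.10). Bach2, another of the list, rose by 0.71 in WT and by 0.44 in KO, and Id3 by 0.52 and 0.77. The 12 transcription factors of effector cells split into 2 higher and 2 lower: Irf4 (0.60 in WT and 0.06 in KO) and Hif1a (0.23 and -0.22) responded lower in KO, and Tbx21, which encodes T-bet, responded higher (0.02 and 0.42). Without a replicate block none of the 12 passed that p, and without the 3 pairs the median difference was 0.05 in place of 0.11.

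Among 14 adhesion and migration receptors 7 had a lower KO response at an unadjusted p under 0.05 and 1 a higher one, with a median of -0.20. S1pr1, 1 of the 7, is also in the FOXO1 target list, whose choice favours a difference below 0. The 7 were 3 with the block as a random effect, 1 without a block and 4 without the 3 pairs, where the median was -0.28. Cxcr3, the receptor for interferon-induced chemokines, was at 19.6, 19.6 and 20.6 FPKM in WT, 22.0, 20.1 and 20.1 FPKM in WT+PI3Kdi, 13.1, 13.9 and 15.7 FPKM in KO, and 8.88, 10.2 and 10.6 FPKM in KO+PI3Kdi. Cxcr3 fell by 0.52 in KO (limma adjusted p = 0.00178) and changed by 0.06 in WT, a difference of -0.58 ± 0.08 (adjusted p = 0.117). After removal of length and GC trends Cxcr3 was the 1 gene called in the table. The chemokine receptor gene Cxcr6 rose by 0.29 in WT (adjusted p = 0.0273) and changed by -0.10 in KO, and the integrin chain gene Itgb1 fell by 0.45 in KO (adjusted p = 0.00723) against a change of -0.15 in WT. Itgb7, a chain of gut-homing integrins, was the exception: it rose by 0.47 in KO (adjusted p = 0.00472), with 0.18 in WT.

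The 13 members of the cytokine and chemokine list each had a KO estimate above the WT estimate, with a median difference of 0.29 (range 0.10 to 0.48). None was called and 3 had an unadjusted p under 0.05, where 8.27% of the whole table were higher and 4.38% lower. The list does not hold Ccl12, described above, whose difference was -0.42. After removal of length and GC trends 11 of the 13 were above 0 and 1 passed that p, without a replicate block 1 passed, and without the 3 pairs 12 of 13 were above 0 and 4 passed. Il24 rose by 0.63 in KO (limma adjusted p = 0.00201) and changed by 0.18 in WT. Ltb, lymphotoxin beta, rose by 0.68 in WT and 0.97 in KO, and Ifng, interferon gamma, fell by 0.97 in WT and by 0.65 in KO. Ccl5 rose by 0.84 in WT and 0.95 in KO, with a difference of 0.11 and a 90% interval from -0.01 to 0.23, inside the 1.5-fold band. Of 15 cytolytic effector members 4 responded higher in KO at that p and none lower, against 0 without a replicate block, 2 with the block as a random effect and 2 without the 3 pairs. The 4 were Gzmf, Gzmd and Gzme of the granzyme cluster, for which reads may be shared, and Ctsw, cathepsin W, which rose by 0.44 in KO (adjusted p = 0.00220) and changed by 0.15 in WT. Prf1, perforin, fell by 0.47 in WT and 0.40 in KO, with a difference of 0.07, and Gzmb, granzyme B, had a difference of 0.22 with a 90% interval of -0.03 to 0.47.

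Interferon-stimulated genes leaned to a higher KO response. Of the 24 members 23 had a difference above 0, with a median of 0.21, and 12 had an unadjusted p under 0.05, all 12 higher in KO. Usp18, which removes ISG15 from proteins, was at 6.42, 6.19 and 5.78 FPKM in WT, 5.29, 5.48 and 5.63 FPKM in WT+PI3Kdi, 9.25, 8.14 and 9.81 FPKM in KO, and 13.96, 9.96 and 11.8 FPKM in KO+PI3Kdi. Usp18 rose by 0.38 in KO (limma adjusted p = 0.0207) and changed by -0.16 in WT (adjusted p = 0.264), and the difference was 0.54 ± 0.11 (adjusted p = 0.157). All 3 WT pairs went down and all 3 KO pairs went up. The nuclease gene Isg20 fell by 0.28 in WT (adjusted p = 0.0273) and changed by 0.14 in KO. Without a replicate block 1 of the 24 had an unadjusted p under 0.05, with the block as a random effect 8 did, after removal of length and GC trends 9 did, and without the pairs with a library high in RNA without a poly(A) tail 18 of 24 were above 0 and 2 passed that p.

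Receptor lists gave mixed counts, to be set beside 8.27% higher and 4.38% lower over the whole table at an unadjusted p under 0.05. Of 8 costimulatory receptors 4 responded higher and 1 lower at an unadjusted p under 0.05 (median 0.23). These counts were 2 and 0 with the block as a random effect, 0 and 0 without a block, and 1 and 2 without the 3 pairs, with a median of 0.12. Cd27 was at 5.88, 10.2 and 9.79 FPKM in WT, 7.22, 12.7 and 12.04 FPKM in WT+PI3Kdi, 5.99, 4.5 and 11.4 FPKM in KO, and 9.33, 9.53 and 19.3 FPKM in KO+PI3Kdi. Cd27 rose by 0.82 in KO (limma adjusted p = 0.00159), with 0.30 in WT (adjusted p = 0.0668), and Tnfrsf18, which encodes GITR, rose by 0.46 in KO (adjusted p = 0.00455), with 0.14 in WT. Of 7 inhibitory receptors 1 was higher, Cd160 (0.46 in WT and 0.77 in KO), and 1 lower, Tigit (0.13 and -0.32); without a replicate block neither passed that p, and without the 3 pairs 0 were higher and 3 lower, with a median of -0.25 in place of -0.07. Ctla4 rose by 1.0 in WT and 0.74 in KO and Lag3 by 0.65 and 0.48, with 90% intervals of the difference from -0.71 to 0.19 and from -0.48 to 0.13. Havcr2, which encodes TIM-3, had a difference of 0.05. Among 16 cytokine receptors the median difference was 0.05, with 2 higher and 0 lower, and 15 of the 16 intervals lay inside the 1.5-fold band; without the 3 pairs the median was -0.04, with 1 higher and 2 lower.

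Of 22 members of the PI3K, AKT and mTOR pathway, 3 responded lower in KO at an unadjusted p under 0.05 and none higher (median -0.08), against 1 lower without a replicate block and 2 without the 3 pairs. Pik3r5, the regulatory subunit of p110γ, was at 13.7, 12.3 and 10.4 FPKM in WT, 26.1, 23.2 and 26.5 FPKM in WT+PI3Kdi, 8.03, 7.21 and 7.58 FPKM in KO, and 12.02, 11.4 and 10.6 FPKM in KO+PI3Kdi. It rose by 1.06 in WT and by 0.57 in KO (limma adjusted p = 0.000721 and 0.00625), and the AKT phosphatase gene Phlpp1 rose by 0.86 in WT (adjusted p = 0.00400) and changed by 0.33 in KO (adjusted p = 0.0742). The third was Pik3cg, which encodes p110γ, with a difference of -0.18. For the metabolic and cell cycle lists most 90% intervals of the difference lay inside the 1.5-fold band. Every interval did so for 19 glycolysis members, 8 of glucose uptake and 27 of the cell cycle, with medians of -0.08, -0.06 and -0.12. Of 23 cholesterol synthesis members 22 had such an interval, and their median response was -0.40 in WT and -0.34 in KO. Of the 27 cell cycle members 21 had a difference below 0. At an unadjusted p under 0.05, 2 of the 27 were higher in KO and 4 lower, and 1 glycolysis member was higher. Without the 3 pairs the glycolysis median was -0.19. Of 16 immediate early genes 3 responded higher in KO at an unadjusted p under 0.05 and none lower (median 0.11), against 0 higher without a replicate block and 1 higher and 1 lower without the 3 pairs. The 2 targets of the aryl hydrocarbon receptor among the members had differences of 0.07 and 0.49, neither passing that p.

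**Figure D5:**
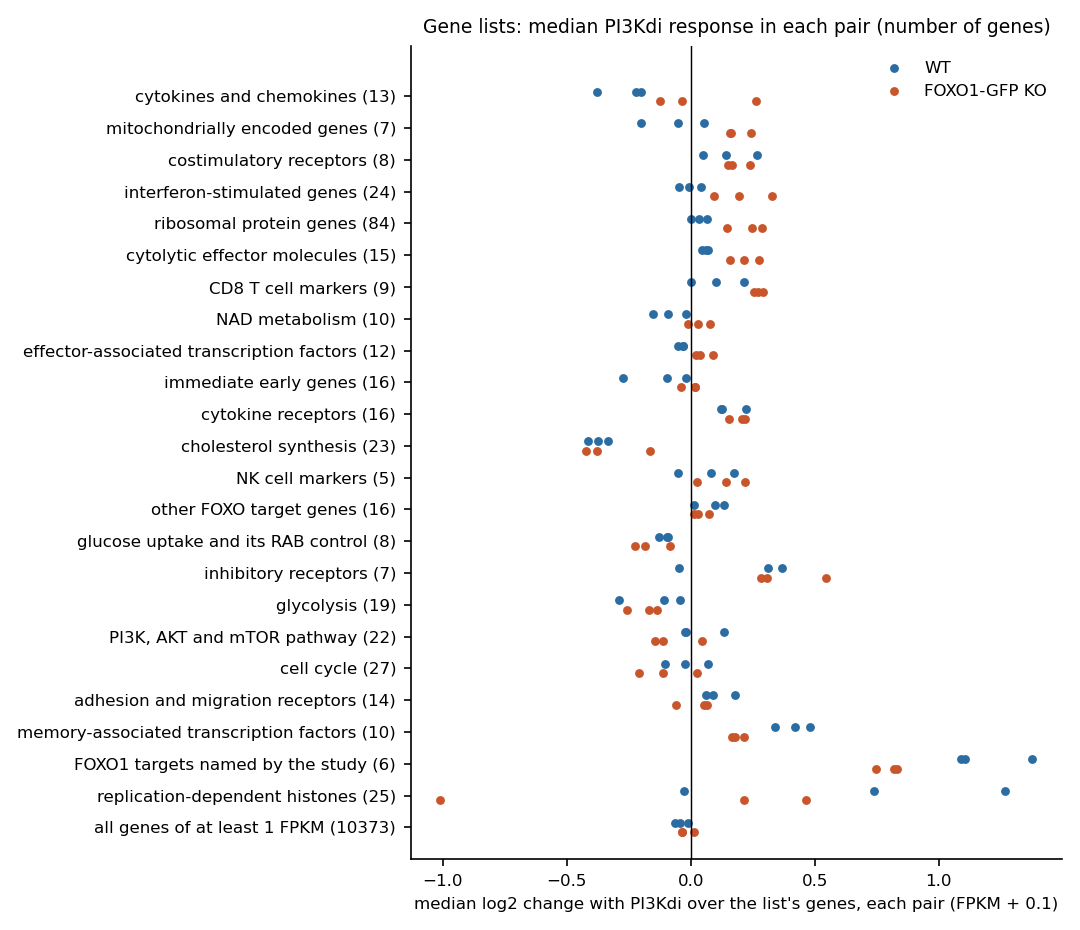
Median log2 change with PI3Kdi over the genes of each list (vertical axis, number of genes in brackets) in each WT and KO pair (horizontal axis), beside all genes of at least 1 FPKM. The FOXO1 target list, whose genes the study shows for their rise in WT, lies lower in KO than in WT pairs. The ribosomal protein, interferon-stimulated and mitochondrially encoded lists lie higher in KO, while the histone list spreads from -1.01 to 1.27 between single pairs.

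Broad shifts appeared in lists tied to RNA composition. Of 84 ribosomal protein members 82 had a difference above 0 (median 0.18) and 46 had an unadjusted p under 0.05, all 46 higher in KO, yet the interval of 80 lay inside the 1.5-fold band. None of the 84 passed that p without a replicate block, 5 did with the block as a random effect, 5 without the 3 pairs and 25 after removal of length and GC trends. Rpl22, a large subunit protein gene, rose by 0.36 in KO (limma adjusted p = 0.00518) and its WT libraries with PI3Kdi were within their spread without it (adjusted p = 0.979). The 25 replication-dependent histone members had the widest spread, with median changes of 1.27, 0.74 and -0.03 in the WT pairs and -1.01, 0.21 and 0.46 in the KO pairs. Their mRNAs end in a stem-loop without a poly(A) tail, and the pairs at 1.27, 0.74 and -1.01 are those that hold the 3 libraries high in Rn7sk and n-R5-8s1. The median difference of the histone list was -0.52 with these pairs and 0.51 without them. For other cell types, CD4 T cell markers summed to 4.96 to 8.24 FPKM and myeloid markers to 20.4 to 44.7 FPKM over the 12 libraries. Markers of NK cells, several of which effector CD8 T cells also express, summed to 4291 to 4509 FPKM in WT, 4863 to 6068 in WT+PI3Kdi, 4578 to 5482 in KO and 5831 to 7469 in KO+PI3Kdi, with a median difference of responses of -0.02 over 5 members.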

How the data were processed

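PolyA-selected, stranded RNA-seq of 12 libraries (4 groups of 3) was analysed. The deposited values are FPKM, made by the authors from reads aligned with STAR 2.7.1a to GRCm38.p6 (names and versions per the submitters' processing notes), filtered and TMM-scaled with edgeR and rounded; 0 further value columns were found. Depth was recovered from genes up to 400 bases long: in genes of up to 800 bases, 97.8 to 99.3% of values came out as whole reads within 0.2 reads, against 40% by chance. Genes removed by the authors' filter were not tested here, and 3 genes are not reported here.

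Limma 3.58.1 in R 4.3.3 was fitted to log2(FPKM + 0.1) of the whole table with 4 groups and the replicate number within genotype as a fixed block, empirical Bayes with a mean-variance trend and Benjamini-Hochberg adjustment over 13283 genes. The labels give the same replicate numbers to the vehicle and PI3Kdi samples, and same-numbered libraries deviated together from their group means (correlations of 0.594 to 0.838), which is the basis of the pairing. A call needed an adjusted p under 0.05 and a 1.5-fold change. The scripts were tested on simulated data. Named genes were Foxo1, the genes called for the difference, the 10 smallest p in each direction among members beyond 1.5-fold without overlap of pair changes and without a predicted-model name, the 6 largest rises and falls of the mean response with the same sign in 6 pairs, and members of the gene lists. Members and lists were chosen with earlier results of these data known. Gene positions came from GENCODE on GRCm38 (13276 genes matched) and promoters from RefSeq. Alternatives covered the block, pseudocount, filter, centring, prior, voom on estimated reads, length and GC trends, leaving out pairs, and, chosen after seeing the data, leaving out the pairs with a library high in RNA without a poly(A) tail.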

Additional observations from a re-analysis of the deposited data

Results flagged for a closer look

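These 3 results were picked out because limma's test of the difference between the genotypes' responses to PI3Kdi passed its threshold. The KO response was higher than the WT response by 1.26 (log2) for Cd38, by 0.96 for Gm13340 and by 0.60 for Tgm2, each at a Benjamini-Hochberg adjusted p of 0.0490 and with 3 KO changes above 3 WT changes. Gm13340 shares 53.7% of its 25-base words with mitochondrial transcripts.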

How the results depend on the processing

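The count of genes called for the difference (3) was 0 with the libraries centred on their median and 0 with a prior variance without trend (1672 and 1491 genes at an unadjusted p under 0.05), 1 after removal of length and GC trends (Cxcr3), and 65 with voom on estimated reads. Of the 65, 57 were members, 19 higher and 38 lower in KO, including Cd38, Tgm2, Gm13340 and 15 of the 20 genes named by size of p; 11 of the 38 were histone or small non-coding RNA genes. Without the replicate block that forms the pairing, 0 genes were called (200 at an unadjusted p under 0.05), 44 members were called for the mean response in place of 145, and 16 in place of 83 had an interval inside 1.5-fold. Blocks as random effects gave 3 calls: Cd38 and 2 genes under a mean of 1 FPKM that responded lower in KO, Slamf6 among them. Tgm2 and Gm13340 were not called there (limma adjusted p = 0.0851 and 0.0966). Blocks across genotypes gave 2 calls, none of them Cd38, Tgm2 or Gm13340. With a pseudocount of 1 FPKM, 4 genes were called (Cd38, Tgm2, Gm12349 and Slamf6, the last under a mean of 1 FPKM), 77 members for the mean response, and 46 lay inside the band. Leaving out 1 pair at a time gave 0 to 2 calls for the difference (0 without WT replicate 2 or 3 or KO replicate 1 or 3, 1 without WT replicate 1, 2 without KO replicate 2), 148 to 178 for the mean response and 69 to 84 inside the band. Chosen after seeing the data, leaving out the pairs with a library high in RNA without a poly(A) tail gave 0, 119 and 51 (1100 genes at an unadjusted p under 0.05, smallest adjusted p 0.275). The adjusted p of Cd38 ran from 0.000510 to 0.449 over these 17 alternatives. For 56 genes followed through them, 881 of 952 values kept direction and side of the threshold, 38 no longer passed, 14 newly passed and 19 changed sign, none of which passed the threshold in either setting. After removal of length and GC trends these were Foxo1 (0.0039), Hic1 (-0.075), Lta (-0.022) and Ccl5 (-0.0002), and with a pseudocount of 1 FPKM Hic1 (-0.0068). Leaving out 1 pair at a time, the difference ran from -0.131 to 0.0593 for Foxo1, -0.161 to 0.210 for Hic1, -0.956 to 0.186 for Ccl12, -0.319 to 0.0214 for Lag3, -0.0598 to 0.191 for Havcr2, -0.0207 to 0.192 for Lta, -0.131 to 0.534 for Csf2 and -0.328 to 0.669 for Xcl1. Without the pairs with a library high in RNA without a poly(A) tail Tcf7 was at 0.064, Havcr2 at -0.252 and Il10 at -0.0095. The causes were not tested.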

Other observations

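Below the 1 FPKM mean, Slamf6, which encodes an immune cell receptor of the SLAM family, was at 0.33, 0.22 and 0.21 FPKM in WT, 1.13, 1.13 and 0.88 FPKM in WT+PI3Kdi, 0.04, 0.03 and 0.01 FPKM in KO, and 0.07, 0.05 and 0.04 FPKM in KO+PI3Kdi. Its difference of responses was -1.43 on the log2(FPKM + 0.1) scale, where the KO values lie under the pseudocount, with a limma adjusted p of 0.128. Slamf6 was called with the replicate block as a random effect and with a pseudocount of 1 FPKM.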
